A study of Mus musculus with 15 samples.

Results

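A set of genes outside the cell cycle was followed here in maternal mouse liver, each chosen because its level with AAV8-p21 differed from that with AAV8-null at one or both stages of pregnancy. They were Arl4a, Cpeb2, Tspan15, Gnat2, Nme4, Pianp, Gm4756 and 1700017B05Rik, 8 of the 21702 genes in the count table. All 8 passed the filter on low counts, Pianp only through AAV8-null livers, and the filter kept 12172 genes. Because the difference between vectors at 8 dpc and 16 dpc (days post coitum) was what chose them, that difference is given below as a description. Nothing is read from its test, and the choice named no numeric threshold.

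RNA was sequenced from whole livers of 15 female wild-type C57BL/6 mice (C57BL/6N in the methods of the study), 3 mice in each of 5 groups. The mice had received an adeno-associated virus of serotype 8 through the tail vein before mating. AAV8-null is the empty control vector, and AAV8-p21 carries the p21 cDNA behind the promoter of thyroxine-binding globulin, which is active in hepatocytes. AAV8-null livers were taken from nonpregnant (NP) mice and at 8 dpc and 16 dpc, and AAV8-p21 livers at 8 dpc and 16 dpc, so that no NP group received AAV8-p21. All 5 groups therefore carried a virus, and the mice were adult virgin females when they entered the study.

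p21, the product of Cdkn1a, binds and inhibits cyclin-dependent kinases and holds cells out of the division cycle, and in pregnancy the maternal liver enlarges while its hepatocytes divide and take on a larger metabolic load. Of the 8 members, 6 are best known for other roles. Arl4a is a small GTPase of the ADP-ribosylation factor-like family that recruits cytohesins to the plasma membrane, and Cpeb2 binds cytoplasmic polyadenylation elements in mRNAs and regulates their translation. Tspan15 is a tetraspanin that accompanies the membrane protease Adam10, Gnat2 is the transducin alpha subunit known from cone photoreceptors, and Nme4 is a mitochondrial nucleoside diphosphate kinase. Pianp is a membrane protein known as a ligand of the paired receptor Pilra, and Gm4756 and 1700017B05Rik are known only by clone or model names.

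Cdkn1a was the check of the vector. It stood at 33.7, 5.12 and 3.29 CPM (counts scaled to a common normalised library size) in the NP AAV8-null livers, at 27.2, 16.5 and 33.4 at 8 dpc and at 64.4, 127 and 59.8 at 16 dpc. In AAV8-p21 livers it reached 648, 628.5 and 347 CPM at 8 dpc and 1664, 815 and 1093 at 16 dpc. Every AAV8-p21 liver was above every AAV8-null liver. These reads do not separate the cDNA of the virus from the mouse gene. Total counts per library lay between 12280709 and 17615185, and the summed level of 6 hepatocyte markers was between 74500 and 434000 CPM in the 15 livers. In bulk liver, a lower level in a group cannot be told apart from fewer cells of the type that expresses the gene.

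The genes lie on 7 chromosomes of GRCm38 (mm10), and positions are those of the GENCODE annotation. Arl4a (ENSMUSG00000047446) lies at chr12:40005447-40038025 on the minus strand, Cpeb2 (ENSMUSG00000039782) at chr5:43233170-43289724 on the plus strand and 1700017B05Rik (ENSMUSG00000032300) at chr9:57253117-57262612 on the minus strand. Gm4756 (ENSMUSG00000109482) lies at chr12:72576002-72649661 on the minus strand. It is listed as protein-coding by GENCODE and as a pseudogene by RefSeq. Tspan15 (ENSMUSG00000037031) lies at chr10:62185396-62231251 on the minus strand, Gnat2 (ENSMUSG00000009108) at chr3:108092789-108101432 on the plus strand, Nme4 (ENSMUSG00000024177) at chr17:26091734-26095602 on the minus strand and Pianp (ENSMUSG00000030329) at chr6:124996694-125003096 on the plus strand. An exon of Cpeb2 overlaps the antisense transcript Gm7854, an exon of Tspan15 overlaps the microRNA gene Mir7662, and Gm4756 overlaps Pcnx4 on the other strand without sharing an exon. Whether the counting used the strand is not given in the sources used here, so reads of Cpeb2 and of its antisense partner cannot be told apart.

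Promoter sequences were matched for 6 of the 8 genes, and the 250 bases before the most upstream RefSeq start on GRCm38.p6 were searched because the members were grouped by their response to p21, which is known to act on genes of dividing cells through E2F sites and cell cycle homology regions in their promoters. Cpeb2 and Gm4756 had no entry. GENCODE starts these 6 genes further upstream than RefSeq, so that 13 to 132 bases of the windows lay in a GENCODE first exon, and for Gnat2 all 250 did. The bases outside the GENCODE gene are printed, 5′ to 3′, which leaves none for Gnat2. Capitals mark a match on either strand to the cell cycle homology letters TTTGAA, to the E2F letters TTCGCGC, to the E2F form TTGGCGC, to the E2F form TTCCCGC, to the E2F form TTGCCGC, or to the E-box CACGTG. No match overlapped another.
Arl4a (chr12:40038026-40038237, minus strand): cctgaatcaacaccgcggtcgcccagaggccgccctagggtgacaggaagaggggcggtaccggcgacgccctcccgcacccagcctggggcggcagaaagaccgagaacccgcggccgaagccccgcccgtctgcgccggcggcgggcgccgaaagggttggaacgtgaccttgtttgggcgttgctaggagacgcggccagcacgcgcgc
1700017B05Rik (chr9:57262613-57262849, minus strand): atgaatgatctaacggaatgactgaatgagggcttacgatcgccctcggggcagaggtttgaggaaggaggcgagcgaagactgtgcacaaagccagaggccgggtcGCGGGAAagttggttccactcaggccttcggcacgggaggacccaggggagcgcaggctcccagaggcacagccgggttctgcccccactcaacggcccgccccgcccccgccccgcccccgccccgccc
Tspan15 (chr10:62231252-62231468, minus strand): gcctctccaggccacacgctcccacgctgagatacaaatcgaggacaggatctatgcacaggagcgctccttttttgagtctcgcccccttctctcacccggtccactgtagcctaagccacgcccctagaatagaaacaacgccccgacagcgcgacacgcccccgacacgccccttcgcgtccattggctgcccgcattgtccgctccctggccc
Nme4 (chr17:26095603-26095720, minus strand): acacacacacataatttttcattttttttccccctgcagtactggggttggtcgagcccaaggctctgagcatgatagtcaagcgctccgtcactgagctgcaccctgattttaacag
Pianp (chr6:124996470-124996693, plus strand): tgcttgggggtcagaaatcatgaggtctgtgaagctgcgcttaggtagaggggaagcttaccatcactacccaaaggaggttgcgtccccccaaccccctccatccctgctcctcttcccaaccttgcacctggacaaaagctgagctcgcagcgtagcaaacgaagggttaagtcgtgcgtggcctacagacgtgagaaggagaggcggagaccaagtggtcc
Of the 6 windows searched, 2 held a match. Nme4 had 1 match to TTTGAA, beginning 123 bases before the RefSeq start in the part that GENCODE counts as exon, and 1700017B05Rik had 1 match to TTCCCGC on the other strand, beginning 143 bases before the start. Of 32851 promoter windows of the same length, 15.99% held TTTGAA, 7.89% held at least one of the E2F strings and 6.02% held CACGTG. The GC content ran from 56.4% for Nme4 to 74.8% for Arl4a and was 46.0% in the window of Gnat2, which GENCODE counts as exon, beside a median of 52.4% over all windows. A match of letters is a description of the window and not a site of binding.

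With the AAV8-null vector alone, 4 of the 8 genes changed between NP and 16 dpc, beside 4.91% of all 12172 genes tested. Arl4a, Cpeb2 and 1700017B05Rik rose and Gm4756 fell. Tspan15, Gnat2, Nme4 and Pianp did not pass. In the same comparison the hepatocyte markers Alb (2.01), Apoa1 (1.67) and Asgr1 (1.40) were called higher, and the hepatocyte marker Ttr (−1.41) and the stellate cell marker Lrat (−1.41) lower, as log2 fold changes, and the part of the cell types in the members' levels was not tested. Here and below, a gene was called when edgeR's quasi-likelihood test gave a Benjamini-Hochberg adjusted p-value under 0.05 over all genes and the log2 fold change was beyond 1 in either direction. The 16 dpc AAV8-null livers in this comparison were also among those that chose the genes, so the count is no independent evidence about them.

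Arl4a stood at 45.3, 30.3 and 38.2 CPM in NP livers, 34.5, 25.4 and 46.1 at 8 dpc and 62.9, 121 and 66.6 at 16 dpc with AAV8-null. With AAV8-p21 it stood at 25.1, 21.3 and 19.8 CPM at 8 dpc and 14.7, 23.8 and 25.2 at 16 dpc. The 16 dpc AAV8-null livers were the 3 highest of all 15, and both AAV8-p21 groups lay below every NP liver. From NP to 16 dpc the GTPase rose 2.20-fold with AAV8-null (log2 fold change 1.14 ± 0.293, SE, adjusted p = 0.0318 in edgeR), and from 8 dpc to 16 dpc it rose 2.36-fold (1.24 ± 0.293, adjusted p = 0.0231). Replicate 2 at 16 dpc was the highest, and without it the rise from NP was 0.77 on the log2 scale (adjusted p = 0.154 in edgeR) and that from 8 dpc 0.87 (adjusted p = 0.113). The call from NP was also lost without NP replicate 2 (adjusted p = 0.134) or NP replicate 3 (0.0973), and that from 8 dpc without 8 dpc replicate 1 (0.0866) or replicate 2 (0.118). With only the compared groups in the edgeR model neither call passed (adjusted p = 0.0878 from NP and 0.0838 from 8 dpc).

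No such rise of Arl4a was seen between stages with AAV8-p21, where the log2 fold change from 8 dpc to 16 dpc was −0.05 ± 0.293 (adjusted p = 0.957 in edgeR). Against NP livers the gene was at −0.78 ± 0.293 at 8 dpc (adjusted p = 0.475) and −0.83 ± 0.294 at 16 dpc (adjusted p = 0.154), neither of which passed. As a description, Arl4a was 3.93-fold lower with AAV8-p21 than with AAV8-null at 16 dpc and 1.60-fold lower at 8 dpc, with no overlap of livers at either stage. Of 5 relatives and partners (Arl4c, Arl4d and the cytohesins Cyth1, Cyth2 and Cyth3), 0 were called in any of the 8 comparisons. Cyth1, the most abundant, averaged 45.3 ± 12.4 CPM (SD, n = 3) with AAV8-null and 55.5 ± 8.06 with AAV8-p21 at 16 dpc.

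Cpeb2 was at 33.2, 19.6 and 28.2 CPM in NP livers. With AAV8-null it reached 46.2, 38.0 and 29.0 at 8 dpc and 72.5, 91.3 and 50.6 at 16 dpc, and with AAV8-p21 21.6, 18.6 and 15.7 at 8 dpc and 24.0, 32.9 and 27.0 at 16 dpc. The 16 dpc AAV8-null livers were again above all the others, while the 16 dpc AAV8-p21 livers lay within the NP range. The rise from NP to 16 dpc with AAV8-null was 2.65-fold (log2 fold change 1.41 ± 0.259, adjusted p = 0.00509 in edgeR), and it was called in all 6 fits that left out 1 liver of either group. From 8 dpc to 16 dpc the difference was 0.92 ± 0.255 (adjusted p = 0.044), below the fold threshold, and without 16 dpc replicate 3 it passed at 1.12 (adjusted p = 0.0293).

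The 16 dpc AAV8-p21 livers differed from NP by 0.05 ± 0.256 on the log2 scale for Cpeb2 (adjusted p = 0.954 in edgeR), and the SE is several times the estimate. Between the AAV8-p21 stages the log2 fold change was 0.59 ± 0.257 (adjusted p = 0.269), and the 3 livers at 16 dpc were all above the 3 at 8 dpc. Beside AAV8-null, the level of this translation regulator was 2.56-fold lower at 16 dpc and 2.03-fold lower at 8 dpc, again without overlap. Its paralogs Cpeb1, Cpeb3 and Cpeb4 gave 0 calls in the 8 comparisons. Cpeb4, the most abundant, averaged 57.6 ± 8.81 CPM (SD, n = 3) with AAV8-null and 29.2 ± 3.69 with AAV8-p21 at 16 dpc, a log2 fold change of −0.98 ± 0.316 (adjusted p = 0.306 in edgeR).

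1700017B05Rik was found at 7.06, 6.15 and 6.43 CPM in NP livers and, with AAV8-null, at 12.3, 8.93 and 10.6 at 8 dpc and 22.4, 36.0 and 19.7 at 16 dpc. The AAV8-p21 livers stood at 6.66, 10.7 and 9.18 CPM at 8 dpc and 6.56, 11.1 and 8.81 at 16 dpc. The AAV8-null groups followed each other upward without overlap, and the AAV8-p21 groups shared one range at both stages. With AAV8-null the gene rose 3.97-fold from NP to 16 dpc (log2 fold change 1.99 ± 0.268, adjusted p = 0.00057 in edgeR), a call kept in all 6 fits that left out 1 liver. It rose 2.45-fold from 8 dpc to 16 dpc (1.29 ± 0.260, adjusted p = 0.0102). That call was lost without 8 dpc replicate 2 (1.18, adjusted p = 0.0592) and without 16 dpc replicate 2, where the change was 0.98 (adjusted p = 0.0487).

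The step of 1700017B05Rik from NP to 8 dpc with AAV8-null, 0.70 ± 0.264 on the log2 scale, did not pass (adjusted p = 0.547 in edgeR). With AAV8-p21 the gene differed from NP by 0.43 ± 0.264 at 8 dpc and 0.43 ± 0.266 at 16 dpc (adjusted p = 0.713 and 0.48), and the stages differed by 0.00 ± 0.262 (adjusted p = 0.997). The description between vectors was 2.95-fold lower with AAV8-p21 at 16 dpc, with no overlap, and 1.20-fold lower at 8 dpc, where the livers overlapped.

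**Figure D1:**
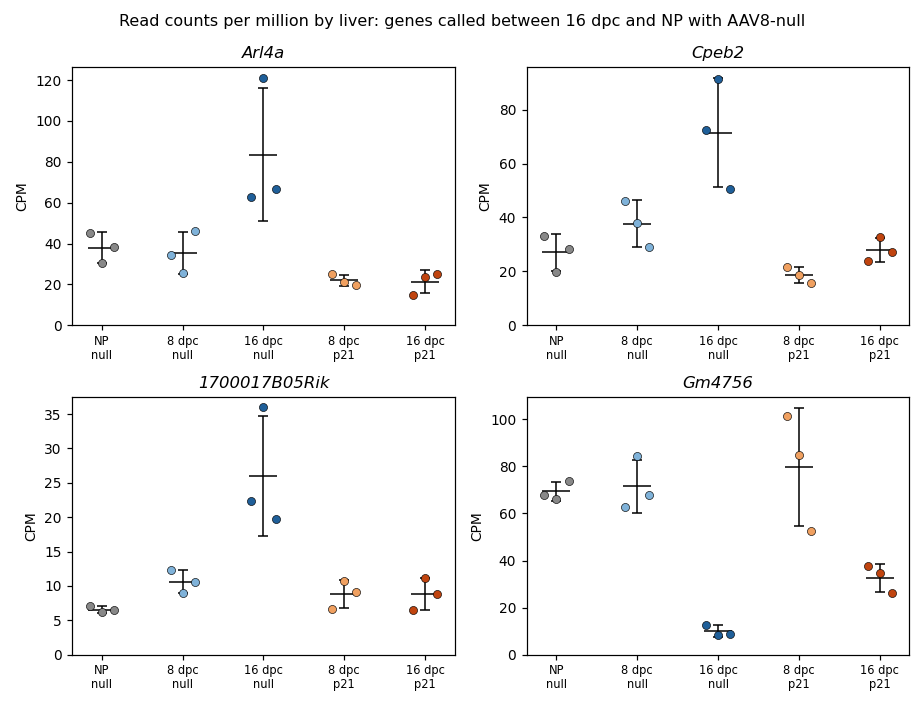
CPM of Arl4a, Cpeb2, 1700017B05Rik and Gm4756 (vertical axes, linear from 0) in each of the 15 livers by group (horizontal axis: null, AAV8-null; p21, AAV8-p21). Points are livers, and bars are the mean and SD of 3 livers; the first 3 genes are highest and Gm4756 is lowest in the 16 dpc AAV8-null livers.

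Gm4756 moved the other way. Its levels were 67.9, 66.3 and 74.0 CPM in NP livers, 62.7, 84.3 and 67.9 at 8 dpc and 12.8, 8.17 and 8.99 at 16 dpc with AAV8-null. In AAV8-p21 livers they were 101.5, 85.0 and 52.4 CPM at 8 dpc and 37.5, 34.5 and 26.0 at 16 dpc. The NP and 8 dpc groups overlapped whatever the vector, and the 16 dpc groups were lower and did not touch each other. The fall from NP to 16 dpc with AAV8-null was 6.96-fold (log2 fold change −2.80 ± 0.262, adjusted p = 2.86e-05 in edgeR), and that from 8 dpc to 16 dpc was 7.18-fold (−2.85 ± 0.262, adjusted p = 2.24e-05). Both calls held in all 6 fits that left out 1 liver.

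Gm4756 was also the 1 gene of the 8 called between the AAV8-p21 stages, beside 2.74% of all genes. Both groups took part in the choice of the genes, so this count is no independent evidence about them. Gm4756 fell 2.44-fold from 8 dpc to 16 dpc (log2 fold change −1.29 ± 0.246, adjusted p = 0.00988 in edgeR), a call lost without 8 dpc AAV8-p21 replicate 1 (−1.07, adjusted p = 0.0604). From NP to the 16 dpc AAV8-p21 livers it fell 2.12-fold (−1.09 ± 0.245, adjusted p = 0.0229). Leaving out NP replicate 2 (adjusted p = 0.061), NP replicate 3 (0.0832), the second 16 dpc AAV8-p21 liver (0.073) or the third (0.086) ended that call, with log2 fold changes from −1.13 to −0.95. At 16 dpc the gene was 3.28-fold higher with AAV8-p21 than with AAV8-null. At 8 dpc it was 1.11-fold higher with overlapping livers.

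Counted over all 8 genes, 3 were called between 8 dpc and 16 dpc with AAV8-null, beside 5.41% of all genes, and these were Arl4a and 1700017B05Rik, which rose, and Gm4756, which fell. Both groups were among those that chose the genes, so this count is no independent evidence about them. Between NP and 8 dpc with AAV8-null, 0 of the 8 genes and 0% of all genes were called by edgeR, and among the 8 only 1700017B05Rik had an unadjusted p under 0.05 (0.019), beside 6.60% of all genes. DESeq2 and limma voom also called 0 of the 8 there, beside 0.380% and 7.25% of all genes. Whether the changes with stage differed between the vectors was not tested, because that difference contains the values that chose the genes.

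The other 4 genes, Tspan15, Gnat2, Nme4 and Pianp, were set apart from the first by not being called between 16 dpc and NP with AAV8-null, and AAV8-p21 livers lay on one side of the AAV8-null livers of the same stage for all 4. Against NP, 4 of the 8 genes were called in the 16 dpc AAV8-p21 livers, beside 3.07% of all genes. Tspan15 and Gnat2 rose, and Pianp and Gm4756 fell. In the 8 dpc AAV8-p21 livers 0 of the 8 were called against NP by edgeR, beside 0.0411% of all genes, and Arl4a, Tspan15, Gnat2 and Pianp had an unadjusted p under 0.05, beside 8.43% of all genes. DESeq2 and limma voom each called 2 of the 8 in that comparison, Gnat2 and Pianp, beside 0.579% of all genes in DESeq2 and 7.24% in voom. The NP livers took no part in the choice of the genes, but the AAV8-p21 livers did.

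Tspan15 was at 3.19, 3.17 and 2.73 CPM in NP livers and, with AAV8-null, at 3.20, 2.62 and 3.17 at 8 dpc and 2.67, 1.92 and 2.67 at 16 dpc. With AAV8-p21 the readings were 4.59, 4.57 and 7.15 CPM at 8 dpc and 6.56, 5.09 and 7.94 at 16 dpc. All 6 AAV8-p21 livers were above all 9 AAV8-null livers. The tetraspanin rose 2.16-fold from NP to the 16 dpc AAV8-p21 livers (log2 fold change 1.11 ± 0.252, adjusted p = 0.0244 in edgeR). The call was lost without NP replicate 2 (adjusted p = 0.0855), NP replicate 3 (0.104), the first 16 dpc AAV8-p21 liver (0.0675) or the third (0.0903), at log2 fold changes from 0.94 to 1.14. It was also lost with only the compared groups in the edgeR model (adjusted p = 0.0733) and in limma voom, where the log2 fold change was 0.92.

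At 8 dpc the AAV8-p21 livers were 1.80-fold above NP in Tspan15 (log2 fold change 0.84 ± 0.251, adjusted p = 0.358 in edgeR). Beside AAV8-null the level was 2.70-fold higher at 16 dpc and 1.81-fold higher at 8 dpc. Of 6 relatives and partners (Tspan5, Tspan10, Tspan14, Tspan17, Tspan33 and Adam10), 5 were tested and 0 were called between the vectors. Adam10, the protease Tspan15 accompanies, was the only one called in any comparison. It rose from 22.2 ± 5.77 CPM (SD, n = 3) in NP livers to 50.5 ± 21.3 at 16 dpc with AAV8-null (log2 fold change 1.19 ± 0.295, adjusted p = 0.0274 in edgeR), and averaged 36.0 ± 3.59 at 16 dpc with AAV8-p21.

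Gnat2 rested on few reads, between 3 and 52 per library. It stood at 0.485, 0.366 and 0.210 CPM in NP livers, 0.698, 0.655 and 0.572 at 8 dpc and 0.535, 0.583 and 1.16 at 16 dpc with AAV8-null. With AAV8-p21 it stood at 1.43, 2.91 and 1.61 CPM at 8 dpc and 4.43, 2.25 and 2.69 at 16 dpc. All 6 AAV8-p21 livers were above all 9 AAV8-null livers. From NP to 16 dpc AAV8-p21 the gene rose 8.85-fold (log2 fold change 3.11 ± 0.454, adjusted p = 0.00125 in edgeR), a call kept in all 6 fits that left out 1 liver.

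At 8 dpc Gnat2 was 5.62-fold above NP with AAV8-p21 (log2 fold change 2.46 ± 0.455), which did not pass (adjusted p = 0.117 in edgeR). It passed in DESeq2 (adjusted p = 0.00301) and limma voom (0.00209), and in edgeR without NP replicate 1 (0.0482). Summed over 3 livers a group, 120 reads with AAV8-p21 stood beside 26 with AAV8-null at 16 dpc, a ratio of 4.05 with a 95% counting interval from 2.64 to 6.46. At 8 dpc 103 reads stood beside 34, a ratio of 3.10 (2.08 to 4.71). These exact intervals cover counting error only and not the spread between livers. Nothing is read from them, because this contrast chose the genes.

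The rod transducin Gnat1, a close relative of Gnat2, was called higher at 16 dpc than in NP livers with both vectors. Its level was 2.08 to 7.25 CPM in the 3 NP livers, 3.67 to 8.17 at 8 dpc and 12.7 to 43.2 at 16 dpc with AAV8-null, and 3.50 to 14.4 and 24.1 to 68.3 with AAV8-p21. Against NP the log2 fold change was 2.48 ± 0.621 with AAV8-null (adjusted p = 0.028 in edgeR) and 2.87 ± 0.627 with AAV8-p21 (adjusted p = 0.0193). From 8 to 16 dpc Gnat1 was called with AAV8-null (2.45 ± 0.617, adjusted p = 0.0297 in edgeR) and not with AAV8-p21 (2.28 ± 0.608, adjusted p = 0.056), a difference between vectors that was not tested. Between the vectors at 16 dpc Gnat1 was at 0.39 ± 0.575 (adjusted p = 0.863). Of the 7 alpha subunits listed as relatives, 3 were tested, and neither Gnai2 nor Gnai3 was called in any comparison.

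Nme4 was likewise low, with 2 to 35 reads per library. NP livers held 1.25, 0.975 and 0.839 CPM, and AAV8-null livers 0.582, 0.834 and 0.624 at 8 dpc and 0.178, 0.333 and 0.534 at 16 dpc. AAV8-p21 livers held 1.48, 1.37 and 1.89 CPM at 8 dpc and 1.79, 0.945 and 2.55 at 16 dpc. With AAV8-null the 3 groups lay below one another with almost no gap, and with AAV8-p21 the second liver at 16 dpc stood within the NP range. The log2 fold change from NP to 16 dpc was −1.53 ± 0.476 with AAV8-null (adjusted p = 0.0745 in edgeR) and 0.78 ± 0.395 with AAV8-p21 (adjusted p = 0.358), so neither direction passed.

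Between vectors 69 reads of Nme4 with AAV8-p21 stood beside 12 with AAV8-null at 16 dpc, a ratio of 5.05 (95% counting interval 2.71 to 10.2). At 8 dpc 81 reads stood beside 36, a ratio of 2.30 (1.53 to 3.51). As for Gnat2, the intervals leave out the spread between livers, and nothing is read from them. Of 6 other nucleoside diphosphate kinases, 4 were tested and 0 were called in any comparison. Nme2, the most abundant, averaged 158 ± 36.4 CPM (SD, n = 3) with AAV8-null and 178 ± 36.9 with AAV8-p21 at 16 dpc.

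**Figure D2:**
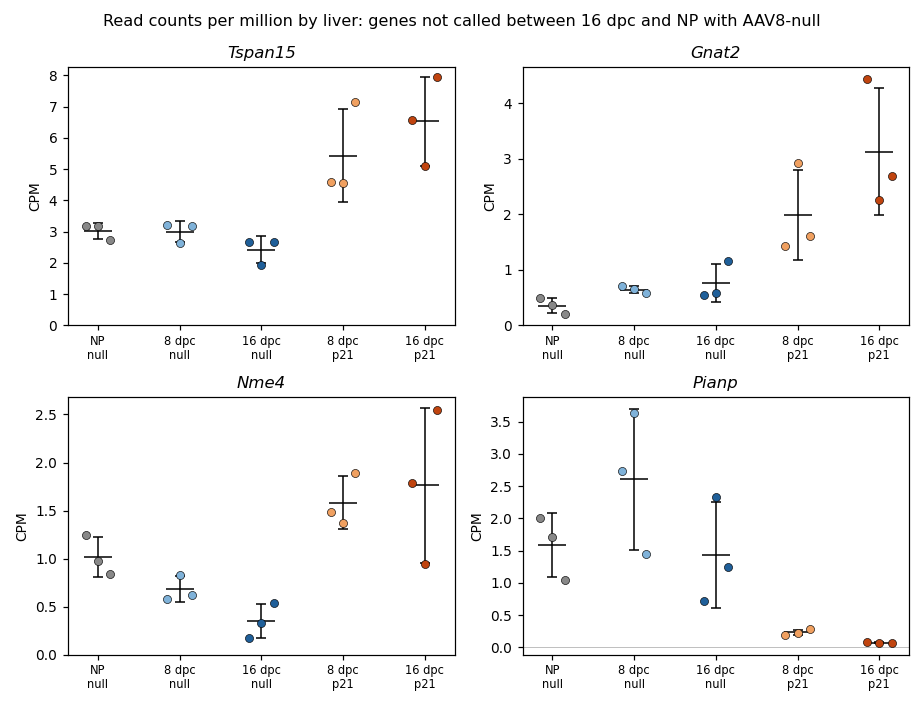
CPM of Tspan15, Gnat2, Nme4 and Pianp (vertical axes, linear) in each of the 15 livers by group (horizontal axis: null, AAV8-null; p21, AAV8-p21). Points are livers, and bars are the mean and SD of 3 livers; Tspan15 and Gnat2 are above, and Pianp below, all 9 AAV8-null livers in all 6 AAV8-p21 livers.

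Pianp was the gene that all but disappeared. It had 29, 28 and 15 reads in NP livers and, with AAV8-null, 47, 61 and 28 at 8 dpc and 8, 28 and 14 at 16 dpc. With AAV8-p21 there were 4 reads in each of the 3 livers at 8 dpc and 1 read in each of the 3 at 16 dpc. All 6 AAV8-p21 livers were below all 9 AAV8-null livers. Pianp passed the filter on low counts only through AAV8-null livers, and the AAV8-p21 livers took part in choosing it. Its calls against NP are therefore no independent evidence. The fall from NP to 16 dpc AAV8-p21 was called (fitted log2 fold change −4.23 ± 0.644, adjusted p = 0.00172 in edgeR), also in all 6 fits that left out 1 liver. From NP to 8 dpc AAV8-p21 the fitted value of −2.73 ± 0.515 did not pass (adjusted p = 0.117 in edgeR), though it did in DESeq2 (0.00595) and limma voom (0.0034).

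Summed over the 3 livers of a group, 50 reads of Pianp with AAV8-null stood beside 3 with AAV8-p21 at 16 dpc, a ratio of 19.0 with a 95% counting interval from 6.13 to 95.1. At 8 dpc the sums were 136 and 12, a ratio of 11.1 (6.15 to 22.0). As for Gnat2, the intervals leave out the spread between livers, and nothing is read from them. In AAV8-null livers Pianp differed from NP by 0.71 ± 0.415 at 8 dpc and −0.14 ± 0.437 at 16 dpc on the log2 scale, and neither passed (adjusted p = 0.918 and 0.895 in edgeR). Its receptor Pilra averaged 2.19 ± 0.888 CPM (SD, n = 3) with AAV8-null and 2.68 ± 1.28 with AAV8-p21 at 16 dpc, and was called in none of the 8 comparisons.

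**Figure D3:**
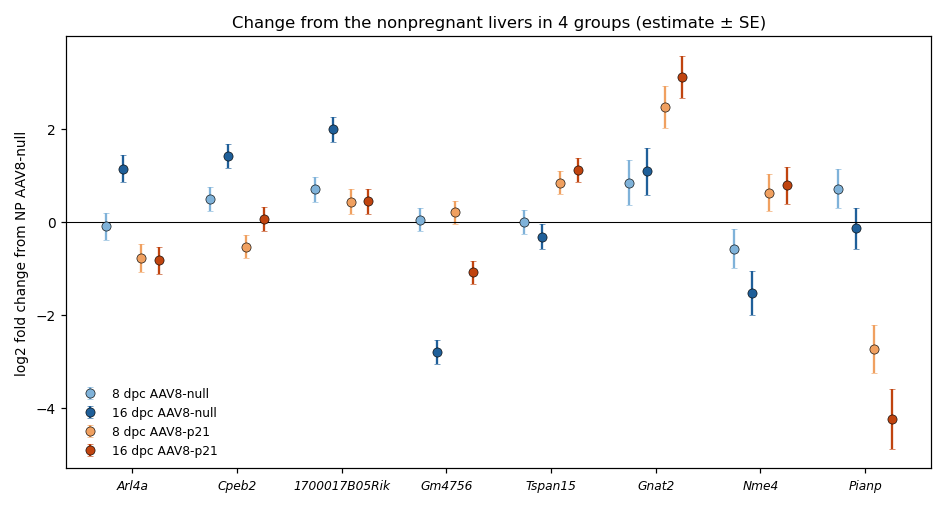
Log2 fold change from the NP AAV8-null livers (vertical axis, edgeR estimate with SE bars) of the 8 genes (horizontal axis) in the other 4 groups of 3 livers. The 16 dpc AAV8-null estimates run from −2.80 for Gm4756 to 1.99 for 1700017B05Rik, and the 16 dpc AAV8-p21 estimates from −4.23 for Pianp to 3.11 for Gnat2.

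The surroundings of each gene on its chromosome were examined next, over all tested genes within 500 kb of the gene body. Beside Pianp there were 37. Called between the vectors were 0.0739% of all genes at 16 dpc and 0.0246% at 8 dpc. Of the 37, 2 were called at both stages. They were C1s2 and C1rb, mouse copies of the complement serine proteases C1s and C1r, at a distance of 360609 bp and 415523 bp from Pianp. C1s2 had 126 to 188 reads per NP liver, 399 to 499 at 8 dpc and 38 to 263 at 16 dpc with AAV8-null, but 1 in each liver at 8 dpc and 0 to 2 at 16 dpc with AAV8-p21. C1rb had 69 to 152 reads per NP liver, 173 to 235 at 8 dpc and 52 to 143 at 16 dpc with AAV8-null, but 1 to 6 at 8 dpc and 1 to 2 at 16 dpc with AAV8-p21. Like Pianp, both were low in every AAV8-p21 liver and overlapped with no AAV8-null liver.

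For C1s2 the sums of 3 livers at 8 dpc were 1328 reads with AAV8-null and 3 with AAV8-p21, a ratio of 433 (95% counting interval 148 to 2100.0). At 16 dpc they were 404 and 3, a ratio of 153 (52.1 to 747). C1rb gave ratios of 61.1 (33.0 to 128) at 8 dpc and 66.7 (28.3 to 207) at 16 dpc. These intervals too cover counting error only. C1s2 and C1rb fell in edgeR's test (adjusted p = 0.000114 for each at 8 dpc, and 0.00112 for C1s2 and 0.000781 for C1rb at 16 dpc). Both passed the filter on low counts only through AAV8-null livers. Each has a close copy in the same cluster, C1s1 and C1ra, and reads that mapped to several places were not counted. Between the vectors C1s1 was at 0.27 ± 0.258 on the log2 scale at 8 dpc and 0.42 ± 0.258 at 16 dpc. C1ra was at 0.04 ± 0.186 and 0.16 ± 0.186, and neither copy was called. How the copies affected the counts was not tested. The median log2 fold change of the 37 neighbours was 0.07 at 16 dpc and 0.04 at 8 dpc, and 3 of them at 16 dpc and 5 at 8 dpc were past 1 in either direction.

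**Figure D4:**
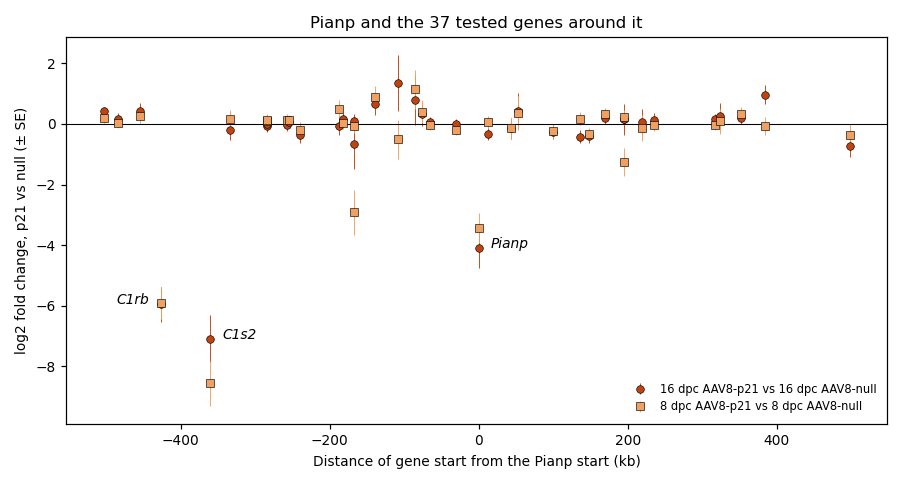
Log2 fold change of AAV8-p21 against AAV8-null with SE bars (vertical axis) at 16 dpc (circles) and 8 dpc (squares) for Pianp and the 37 tested genes around it, by distance of gene start from the Pianp start in kb (horizontal axis). Pianp, C1s2 and C1rb lie between −3.44 and −8.57, and the 2 stages of C1rb nearly coincide.

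Around the other genes, 0 neighbours were called between the vectors, beside 0.0739% of all genes at 16 dpc and 0.0246% at 8 dpc. With shares so small, a count of 0 says little. The neighbours were 22 beside Gnat2, 28 beside Nme4, 20 beside 1700017B05Rik, 13 beside Tspan15, 7 beside Gm4756 and 3 each beside Arl4a and Cpeb2. Beside Gnat2, 5 of the 22 were past 1 on the log2 scale at 16 dpc without being called. They were 5330417C22Rik and 4 glutathione transferase genes, Gstm2, Gstm3, Gstm4 and Gstm6, which were picked out after their values were seen. The largest, Gstm3, was at 2.68 ± 1.05 (adjusted p = 0.424 in edgeR). The Gstm genes are close copies of each other, and their counts are uncertain for that reason.

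Set side by side for the contrasts that chose the genes, the log2 fold changes of AAV8-p21 against AAV8-null at 16 dpc were −1.97 for Arl4a, −1.35 for Cpeb2, −1.56 for 1700017B05Rik and −4.09 for Pianp. They were 1.43 for Tspan15, 2.03 for Gnat2, 2.31 for Nme4 and 1.71 for Gm4756. At 8 dpc they were −0.68 for Arl4a, −1.02 for Cpeb2, −0.27 for 1700017B05Rik, −3.44 for Pianp, 0.85 for Tspan15, 1.62 for Gnat2, 1.20 for Nme4 and 0.15 for Gm4756. All 8 genes had groups that did not overlap at 16 dpc, beside 13.7% of all genes. At 8 dpc 3 lay higher without overlap (Tspan15, Gnat2 and Nme4, beside 5.52% of all genes) and 3 lower (Arl4a, Cpeb2 and Pianp, beside 4.49%). Past the thresholds were 4 of the 8 at 16 dpc (beside 0.0739% of all genes), namely Arl4a, Pianp, Gm4756 and 1700017B05Rik, and only Pianp at 8 dpc (beside 0.0246%). These counts follow from the choice of the genes and are no test of it.

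Per length of transcript, the order of the 8 genes in NP livers ran from Gm4756 at 20.5 RPKM (CPM per kilobase of exon) through Arl4a at 4.93, Cpeb2 at 3.45, 1700017B05Rik at 1.25, Nme4 at 0.645, Pianp at 0.557 and Tspan15 at 0.370 to Gnat2 at 0.118. At 16 dpc with AAV8-null Arl4a (10.8) and Cpeb2 (9.14) stood above 1700017B05Rik (4.97) and Gm4756 (2.94). At 16 dpc with AAV8-p21 Gm4756 (9.63) was again the highest and Pianp (0.0270) the lowest. Cdkn1a averaged 335 RPKM in the same 16 dpc AAV8-p21 livers.

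Whether the genes followed Cdkn1a from liver to liver was computed within each vector, since the vectors separate Cdkn1a into 2 clusters. The 6 AAV8-p21 livers and 6 of the 9 AAV8-null livers (8 and 16 dpc) also supplied the values that chose the genes, so the p-values below are no independent evidence that the genes follow Cdkn1a. Among the 9 AAV8-null livers, log2 CPM of 1700017B05Rik correlated with that of Cdkn1a with Pearson's r = 0.866 (exact permutation test, two-sided, p = 0.00255, adjusted p = 0.0408 over 16 relations) and Spearman's rho = 0.867 (permutation adjusted p = 0.0324). Cpeb2 gave r = 0.838 (permutation adjusted p = 0.0441) and rho = 0.85 (permutation adjusted p = 0.0324). Arl4a gave r = 0.772 (permutation adjusted p = 0.0768) and rho = 0.85 (permutation adjusted p = 0.0324). Gm4756 gave r = −0.745 (permutation adjusted p = 0.089) and rho = −0.767 (permutation adjusted p = 0.0856), and the remaining 4 genes did not pass either. Without the 2 livers farthest from the median of Cdkn1a, r was 0.891 for 1700017B05Rik, 0.805 for Cpeb2 and 0.992 for Arl4a. It was −0.906 for Gm4756, −0.693 for Tspan15, −0.661 for Nme4 and −0.491 for Pianp. For Gnat2 it was 0.0652, beside 0.672 over all 9 livers.

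These relations mix stages, and Cdkn1a was itself highest in the 16 dpc AAV8-null livers. Within the 6 NP and 8 dpc AAV8-null livers, whose Cdkn1a levels overlap, r was 0.708 for 1700017B05Rik, 0.608 for Cpeb2 and 0.366 for Arl4a (exact permutation adjusted p = 0.541, 0.541 and 0.609 over 8 relations), and rho was 0.543, 0.486 and 0.543 (exact permutation adjusted p = 0.57 for each). The relations therefore did not pass without the 16 dpc livers, a check added after the data were seen. Among the 6 AAV8-p21 livers 0 of the 8 genes passed, and the strongest relation was that of Pianp, r = −0.854 (exact permutation adjusted p = 0.089) and rho = −0.771 (exact permutation adjusted p = 0.235), which rests on 1 read against 4 per liver.

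The genes whose log2 CPM was most like each member over all 15 livers are given as a description, and these points share groups and libraries. Pianp was closest to C1rb (Pearson's r = 0.937) and C1s2 (0.934), and Gnat2 to Cdkn1a (0.916) and Snrpn (0.877). Tspan15 was closest to Bcl2l14 (0.868) and to Nme4 (0.866), and Nme4 to Tspan15 and Fibp (0.859). Arl4a was closest to Plin5 (0.894), which coats lipid droplets, and Samd4b (0.887), and Cpeb2 to Oser1 (0.915) and Man1a (0.887). Gm4756 was closest to the mitochondrial carbonic anhydrase Car5b (0.955) and to Anxa6 (0.951), and 1700017B05Rik to Tor3a (0.908) and Mak16 (0.894). With group means taken out, the same correlations were lower, for example 0.34 between Gnat2 and Cdkn1a and 0.487 between Pianp and C1rb.

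Other measures also moved with the groups. The summed level of 5 cholangiocyte markers was 36.0 to 53.3 CPM with AAV8-p21 and at most 26.8 with AAV8-null at 8 dpc, and 19.6 to 43.0 and 8.41 to 17.3 at 16 dpc. Most of that sum was Spp1, and Krt19, Krt7, Epcam and Sox9 each averaged under 2 CPM in every group. At each stage 4 of the 5 markers were higher with AAV8-p21, with a median log2 difference of 0.755 at 8 dpc and 0.691 at 16 dpc, and at 16 dpc Epcam was at 0.947 to 1.31 CPM against 0 to 0.534, without overlap. The summed level of 8 genes of dividing cells was 15.7 to 152 CPM with AAV8-null and 7.80 to 26.2 with AAV8-p21 at 8 dpc, and at most 21.9 CPM in every liver at 16 dpc. The summed hepatocyte markers were higher with AAV8-p21 at 8 dpc (107000 to 129000 CPM against 74500 to 93300) and lower at 16 dpc (272000 to 305000 against 309000 to 434000), without overlap. Most of that sum was albumin (Alb), and 3 of the 6 markers were higher with AAV8-p21 at each stage, with a median log2 difference of 0.06 at 8 dpc and 0.01 at 16 dpc. At 8 dpc 5 stellate cell markers summed to 165 to 239 CPM with AAV8-p21 and 98.4 to 160 with AAV8-null, and 5 lymphocyte markers to 2.81 to 3.36 and 2.08 to 2.74, while both overlapped at 16 dpc. Kupffer and sinusoidal endothelial cell markers overlapped between the vectors at both stages, and 0 genes of these 6 marker lists were called between the vectors. Between stages Alb, Apoa1 and Asgr1 were called higher at 16 dpc than in NP livers and than at 8 dpc, with either vector (log2 fold changes of 1.23 to 2.39). From 8 to 16 dpc with AAV8-null, Pecam1 (1.16) and Dcn (1.04) were also called higher and 5 of the 8 genes of dividing cells lower (Cdc20, Birc5, Top2a, Ccnb2 and Ccnb1), and 0 genes of these lists were called between NP and 8 dpc with either vector. A log2 difference between clock genes of opposite phase lay between −4.45 and −2.58 in the 16 dpc AAV8-p21 livers and between −1.24 and 1.82 in the 16 dpc AAV8-null livers, without overlap. At 8 dpc the vectors overlapped, at 1.16, 1.28 and −1.04 with AAV8-null and 2.66, 2.27 and −2.88 with AAV8-p21, where replicate 3 stood apart. Among NP livers it was 0.391 in replicate 1 and −3.97 and −4.05 in the others. The part of these measures in the levels of the 8 genes was not tested.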

How the data were processed

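Livers of 15 mice in 5 groups of 3 were profiled by RNA-seq. The authors prepared stranded mRNA libraries, used cutadapt 1.14 for trimming and HISAT2 2.1.0 for alignment to mm10, and counted unique alignments over protein-coding genes with HTSeq 0.12.4 (tools and versions per the submitters' processing notes). The deposited values are raw counts for 21702 genes. Reads mapping to several places are lost by this step, so genes with close copies are undercounted. The 16 dpc AAV8-p21 columns were not tied to numbered samples and are named in table order.

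The 8 genes and all gene lists were chosen with earlier results of these data known. Counts were tested with the quasi-likelihood test of edgeR 4.0.16 (R 4.3.3) on one model of 5 groups, TMM normalisation, filterByExpr (minimum count 10) and Benjamini-Hochberg adjustment. Calls needed adjusted p under 0.05 beside a log2 fold change beyond 1. CPM uses TMM library sizes, and correlations add 0.5 CPM before the logarithm. RPKM divides by GENCODE exon length. The clock measure is a difference of mean log2 CPM between 2 sets of clock genes. Permutation tests and exact intervals used scipy 1.17.1, and figures matplotlib 3.10.9. The named genes were the 8 genes and Cdkn1a, listed relatives (the most abundant and those called), called neighbours within 500 kb and the 2 genes most alike per member. The laser capture samples were not analysed here. Alternatives were DESeq2 1.42.0, limma 3.58.1 voom, other size factors and filters, the compared groups alone, a replicate block and each library left out. Scripts were tested on simulated counts. The smallest two-sided p that an exact permutation of 3 livers against 3 allows is 0.1. All replicate libraries differed by more than counting noise.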

Additional observations from a re-analysis of the deposited data

How the results depend on the processing

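For the stage and NP comparisons of the 8 genes, 667 alternative values were computed, of which 168 belong to a called value. Of these 168, 22 were not called, and 8 others were. The sign changed in 21 of the 667, 0 of which were called in either setting. For the comparisons of vectors, which carry no test, 217 were computed. Of these, 5 moved by at least the pooled SD of log2 CPM between livers of the 2 groups. The sign changed in 1, that of the uncalled Gm4756 at 8 dpc. In addition, 28 of the 64 that belong to a called value were not called and 13 others were. Counts of called genes depended on the processing as follows. Between the vectors at 16 dpc (4 called, beside 9 of all 12172 genes), at least 10 counts in every library gave 2 (beside 3 of 10370). EdgeR on the compared groups gave 0 (5 of 11391), DESeq2 on all libraries 8 (99 of 16073) and DESeq2 on the compared groups 7 (122 of 15300). Between the vectors at 8 dpc (1 called, beside 3 of all 12172 genes), at least 10 counts in every library gave 0 (beside 0 of 10370). EdgeR on the compared groups gave 0 (5 of 11860), voom 2 (88 of 12172) and DESeq2 on the compared groups 2 (81 of 15492). For 16 dpc AAV8-p21 against NP (4 called, beside 374 of 12172 genes), at least 10 counts in every library gave 2 (285 of 10370). The filter of 10 counts tests only 5 of the 8 genes. Between the vectors at 16 dpc it left out Pianp, while 1700017B05Rik was tested and not called. For 8 dpc AAV8-p21 against NP (0 called, beside 5 of 12172 genes), DESeq2 on all libraries gave 2 (93 of 16073). Voom also gave 2 (881 of 12172), as did DESeq2 on the compared groups (191 of 15449). Apart from the genes that the filter left out, the cause was not tested. Leaving out each library in turn gave 0 to 4 called between the vectors at 16 dpc (beside 3 to 35 of all genes). At 8 dpc it gave 0 to 1 (beside 2 to 38). It gave 3 to 4 for 16 dpc AAV8-null against NP (338 to 604) and 1 to 4 for 16 dpc against 8 dpc AAV8-null (248 to 1039). The AAV8-p21 stages gave 0 to 1 (154 to 393). Against NP, 8 dpc AAV8-p21 gave 0 to 1 (2 to 63) and 16 dpc AAV8-p21 2 to 4 (192 to 403). All genes tested in these fits numbered 12348 to 12435. With only the compared groups, edgeR gave 3 for 16 dpc AAV8-null against NP (beside 382 of 11431 genes). It gave 2 for 16 dpc against 8 dpc AAV8-null (316 of 11541) and 3 for 16 dpc AAV8-p21 against NP (283 of 11614). Correlations with Cdkn1a passed for 2 of 16 relations by Pearson's r and for 3 by Spearman's rho. Without the 2 livers farthest from the median, 3 passed by Pearson's r.

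Replicate numbers were shared between groups, but same-numbered livers did not deviate together (mean r = 0.0059 over 18 pairs, above 0.1 in 7). With the replicate number as a block, 12 libraries were used. Between the vectors at 8 dpc 0 of the 8 genes were called, beside 2 of all 12073. The same 12 libraries without the block, an alternative chosen after seeing the data, also gave 0, beside 2 of 12073. The block gave 3 called genes for 16 dpc AAV8-null against NP (beside 549 of 12073), where Arl4a missed (adjusted p = 0.0643 in edgeR). It changed no other count of the 8. Low counts limit Gnat2, Nme4 and Pianp.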
